A study of Mus musculus with 6 samples.

Results

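The 8 genes described here, Atxn1, Atxn3, Atxn7, Atxn10, Tbp, Ppp2r2b, Fgf14 and Cacna1a, are mouse counterparts of human spinocerebellar ataxia (SCA) disease genes, and were taken by symbol from a table of 22926 gene features. All 8 were present, in 12 table rows, 0 of which were shared with another gene. The libraries came from C57BL/6 mice of 6 months, either homozygous for a knockout of Atxn2, itself an SCA gene, or wild type. Cerebellum, hippocampus and liver gave 1 library per genotype each, 6 in all, and every library pooled 3 animals. MACE, the method used, reads a fragment next to the poly(A) tail, so a transcript gives 1 tag whatever its length and levels can be set side by side between genes. No source used here states which stretch of Atxn2 the knockout removes. The protocol text speaks of midbrain and of ages in weeks, and the sample labels (hippocampus, months) were followed.

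SCAs are dominantly inherited disorders in which Purkinje cells and other neurons of the cerebellum and brainstem fail. In several of them a run of CAG codons lengthens, so that the protein carries an expanded glutamine tract, as in ataxin-1, ataxin-3, ataxin-7, the TATA-binding protein and the P/Q-type calcium channel subunit encoded by Cacna1a. In others the expanded repeat lies outside the coding sequence, as in ATXN10 and PPP2R2B, while FGF14 carries substitutions or an intronic repeat. Most of these genes are transcribed in many cell types, although the disease is one of neurons.

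The mouse genes carry short glutamine tracts. The longest run of glutamine codons (CAG or CAA) in the coding sequence of each polyglutamine gene is shown to let the members be compared, in capitals with 15 flanking bases on either side, 5′ to 3′ on the coding strand, from GENCODE M21 transcripts on GRCm38 that match a RefSeq record in the deposited table. Whether a run lies at the place of the human repeat was not examined.
Atxn1: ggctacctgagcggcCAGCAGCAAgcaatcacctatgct
Atxn3: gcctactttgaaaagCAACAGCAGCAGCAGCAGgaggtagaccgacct
Atxn7: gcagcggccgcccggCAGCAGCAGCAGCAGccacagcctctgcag
Tbp: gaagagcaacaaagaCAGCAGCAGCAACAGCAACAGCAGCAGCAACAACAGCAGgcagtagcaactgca
Cacna1a: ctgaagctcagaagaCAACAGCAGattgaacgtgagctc

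The run in Tbp was the longest of these, with 13 glutamine codons (9 CAG and 4 CAA) in exon 3 of 8, on the plus strand at chr17:15504391-15504429. Atxn3 had 6 codons, 5 of them CAG, in exon 10 of 11, on the minus strand at chr12:101926563-101926580. Atxn7 had 5 uninterrupted CAG codons in exon 2 of 12, on the plus strand at chr14:14013156-14013170. Atxn1 and Cacna1a each had a run of 3 codons, 2 of them CAG, in exon 7 of 8 (minus strand, chr13:45567080-45567088) and in exon 8 of 47 (plus strand, chr8:84536122-84536130).

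The genes lie on separate chromosomes but for Atxn7 and Fgf14, which share chromosome 14 (RefSeq positions on GRCm38.p6). Atxn1 spans chr13:45549755-45964991, Atxn7 chr14:13961283-14107316, Tbp chr17:15499888-15517427 and Atxn3 chr12:101918901-101959121. Atxn10 spans chr15:85336255-85463837, Ppp2r2b chr18:42645207-43059471, Cacna1a chr8:84338631-84640251 and Fgf14 chr14:123974441-124677686.

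Gene tags numbered 1774523 to 2727523 per library. The targeted gene was nearly absent from the knockout, with 0 tags of Atxn2 against 167 in wild-type cerebellum, 1 against 194 in hippocampus and 2 against 115 in liver. Xist, a transcript of female cells, was at 0 tags throughout the knockout but at 34, 49 and 87 in wild-type cerebellum, hippocampus and liver, so a difference in sex between the pools cannot be told apart from genotype. Marker lists went with the labelled tissues. All 9 Purkinje cell and all 10 granule cell markers tested were higher in cerebellum than in hippocampus, against 13.5% of all features. Of hippocampal neuron markers 10 of 11 were lower, against 15.8%. All 10 hepatocyte markers were lower in cerebellum and in hippocampus than in liver, against 32.6% and 33.3%. Some markers, such as Fat2, Barhl1, Lct and Tbr1, passed the expression filter through 1 tissue alone and could only be higher there. These counts are thus a description and no test of the labels. Hepatocyte markers summed to 4020 and 1581 CPM in wild-type cerebellum and hippocampus against 2706 and 365 in the knockout. Ttr is on this list and on that of choroid plexus markers, which summed in the same order to 3977 and 482 against 2829 and 229 CPM. The hepatocyte sums in brain thus do not measure hepatocyte RNA alone.

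Levels spanned a wide range among the 8 genes. CPM here means tags per 1000000 gene tags after scaling by the trimmed mean of M-values (TMM), and tissue means are over 2 libraries with their SD. Atxn10, which encodes a cytoplasmic protein needed for neuron survival, and Cacna1a, the pore of the presynaptic P/Q-type channel, were far above the rest in cerebellum, at 239.9 ± 21.3 and 233 ± 17.9 CPM (n = 2), above 96.2% and 96.0% of 12906 tested features. Atxn1 came next, at 30.6 ± 0.800 CPM, then Ppp2r2b at 18.7 ± 0.649, Fgf14 at 13.9 ± 5.71, Atxn7 at 13.1 ± 4.18, Tbp at 12.5 ± 0.142 and Atxn3 at 5.34 ± 0.339. Among these the libraries of neighbouring genes overlapped for Atxn10 and Cacna1a and from Fgf14 to Tbp, so the order there is not larger than the spread.

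In hippocampus Atxn10 led at 346 ± 3.73 CPM, followed by Cacna1a at 86.4 ± 6.17, Ppp2r2b at 51.0 ± 0.109 and Atxn1 at 50.8 ± 11.5, the last 2 overlapping. Atxn7 (11.4 ± 1.59), Atxn3 (10.1 ± 3.95) and Fgf14 (8.61 ± 0.955) followed, each overlapping its neighbour, and both Tbp libraries (6.90 ± 1.35) lay just below those of Fgf14. In liver Atxn10 was again highest, at 142 ± 34.6 CPM, with Atxn1 at 21.4 ± 7.27. Cacna1a (9.71 ± 4.55), Tbp (8.86 ± 4.30), Atxn7 (8.42 ± 2.73) and Atxn3 (6.58 ± 1.66) overlapped, and Ppp2r2b and Fgf14 had 0 tags in both liver libraries. A count of 0 allows up to 3 tags, or 3.24 CPM in the knockout and 1.94 CPM in the wild-type liver library, by counting error alone.

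**Figure D1:**
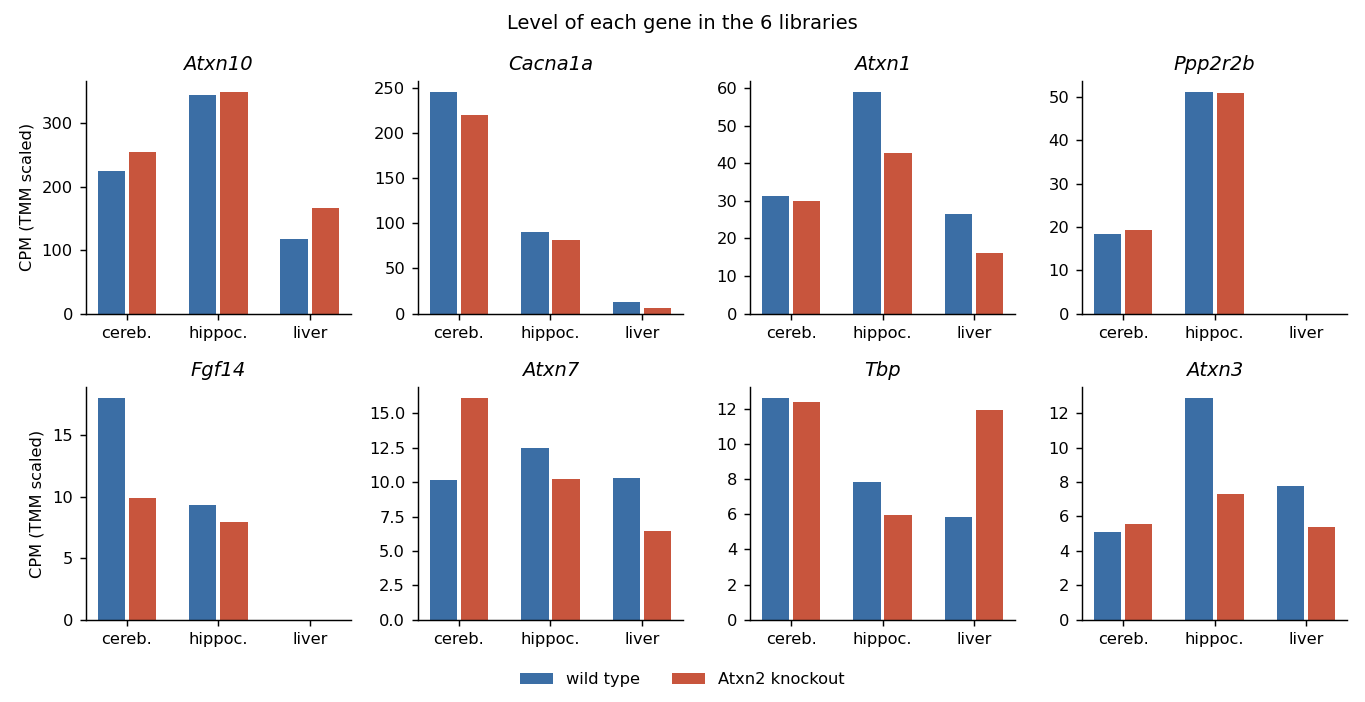
Level of each gene (y axis, TMM-scaled CPM, a separate scale per panel) in wild-type and knockout libraries of cerebellum, hippocampus and liver; each bar is 1 library of 3 pooled animals. Cacna1a is highest in cerebellum, Ppp2r2b in hippocampus, and Ppp2r2b and Fgf14 have 0 tags in liver.

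Cerebellum and hippocampus differed in 4 of the 8 genes (edgeR quasi-likelihood test over 6 libraries with genotype in the model, Benjamini-Hochberg adjusted p under 0.05), where 29.3% of 12906 features passed. Cacna1a was higher in cerebellum, and Ppp2r2b, Atxn1 and Atxn10 were lower. Of all features, 13.5% passed as higher and 15.8% as lower. Both directions were thus present among the disease genes, and their median difference was -0.17 on the log2 scale against -0.0039 for all features. The comparisons between tissues share libraries, and their p-values measure agreement between the 2 pools, not between animals.

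Cacna1a tags numbered 710 (knockout) and 818 (wild type) in cerebellum and 248 and 254 in hippocampus, or 219.9, 245, 82.0 and 90.7 CPM. Both cerebellar libraries thus lay above both hippocampal ones, by 2.68-fold in knockout and 2.70-fold in wild type. The fitted difference was 1.42 on the log2 scale (SE 0.17, adjusted p = 7.94e-07, edgeR).

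Ppp2r2b, a brain-enriched regulatory B subunit of protein phosphatase 2A (PP2A), showed the reverse. Its cerebellar libraries held 62 and 61 tags and its hippocampal ones 154 and 143, knockout first, or 19.2, 18.3, 50.9 and 51.1 CPM. The hippocampal libraries were 2.65-fold and 2.79-fold above the cerebellar ones in knockout and wild type, and the fitted difference, cerebellum minus hippocampus, was -1.45 (SE 0.21, adjusted p = 1.48e-05, edgeR). Cacna1a and Ppp2r2b passed in the same direction under each of the 14 alternatives run for this contrast.

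Atxn1, whose protein acts with the repressor capicua on transcription, was counted 97 and 104 times in cerebellum and 129 and 165 times in hippocampus, knockout first, or 30.0, 31.2, 42.7 and 58.9 CPM. The cerebellar libraries were close to each other and below both hippocampal ones. The fitted difference was -0.72 (SE 0.20, adjusted p = 0.00710, edgeR). The call was lost with DESeq2 (adjusted p = 0.131), without wild-type cerebellum (0.423) and without wild-type hippocampus (0.142).

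Atxn10 had 823 and 750 tags in cerebellum and 1054 and 961 in hippocampus, knockout first, or 255, 225, 349 and 343 CPM. The groups did not overlap, and the fitted difference was -0.54 (SE 0.17, adjusted p = 0.0228, edgeR). It was lost with library totals (adjusted p = 0.0874), DESeq2 (0.189), and without knockout cerebellum (0.377), wild-type cerebellum (0.315) or wild-type hippocampus (0.275).

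The other 4 did not pass. Tbp, the general transcription factor that binds the TATA box, was at 12.4 and 12.6 CPM in cerebellum and 5.95 and 7.86 in hippocampus, knockout first, without overlap (difference 0.85, SE 0.34, adjusted p = 0.0634, edgeR). It passed with library totals (0.0347), without a filter (0.0445) and when knockout or wild-type liver was left out (0.0232 and 0.0234). Atxn3, which encodes a deubiquitinating enzyme, was at 5.58 and 5.10 CPM in cerebellum and 7.27 and 12.9 in hippocampus (-0.90, SE 0.36, adjusted p = 0.0696, edgeR), and passed only without knockout or wild-type liver (0.0306 and 0.0341).

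Fgf14, an intracellular partner of voltage-gated sodium channels, was at 9.91 and 18.0 CPM in cerebellum against 7.94 and 9.29 in hippocampus (0.66, SE 0.32, adjusted p = 0.130, edgeR). Atxn7, a subunit of the SAGA coactivator, was at 16.1 and 10.2 against 10.3 and 12.5 CPM, with the groups interleaved (0.20, SE 0.31, adjusted p = 0.680, edgeR). The Atxn7 difference turned to -0.35 without knockout cerebellum and to -0.10 without knockout hippocampus.

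**Figure D2:**
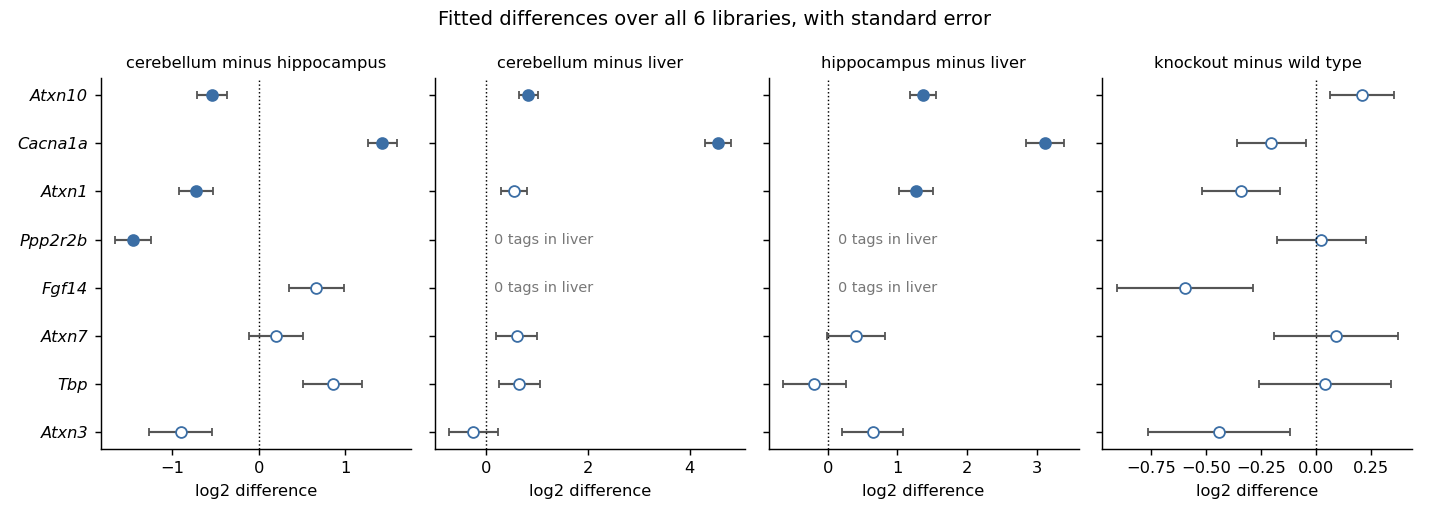
Fitted log2 differences (x axis, separate range per panel) of the 8 genes for the 3 tissue pairs and for knockout minus wild type, from edgeR over the 6 libraries; bars are standard errors and filled points have an adjusted p under 0.05. Cacna1a and Ppp2r2b lie on opposite sides of 0 in cerebellum minus hippocampus, and no point is filled for genotype.

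Against liver, Cacna1a, Ppp2r2b, Fgf14 and Atxn10 were higher in both brain tissues and Atxn1 in hippocampus, while Atxn3, Atxn7 and Tbp did not pass. Cacna1a was 33.9-fold and 19.0-fold higher in cerebellum than in liver in knockout and wild type, with 6 and 20 liver tags (6.49 and 12.9 CPM). The fitted difference was 4.55 (SE 0.26, adjusted p = 9.21e-13) from cerebellum and 3.13 (SE 0.27, adjusted p = 1.38e-09) from hippocampus (edgeR). Granule cell markers, for comparison, summed in liver to 72.5 (knockout) and 81.5 CPM (wild type), with 1 of 10 at 0, and the part of brain RNA in the liver tags of Cacna1a was not tested.

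Ppp2r2b and Fgf14 had no liver tag, so their folds are lower bounds against 3 tags per liver library. Ppp2r2b was at least 15.7-fold and at least 26.3-fold higher in knockout and wild-type hippocampus, and at least 5.92-fold and at least 9.43-fold higher in cerebellum. Fgf14 was at least 3.06-fold and at least 9.27-fold higher in knockout and wild-type cerebellum, and at least 2.45-fold and at least 4.79-fold higher in hippocampus.

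Atxn10 had 154 and 182 liver tags (167 and 118 CPM), below every brain library. It was 0.83 higher in cerebellum (SE 0.19, adjusted p = 5.61e-04) and 1.37 higher in hippocampus (SE 0.19, adjusted p = 1.41e-06, edgeR). Atxn1, at 16.2 and 26.5 CPM in liver from 15 and 41 tags, was 1.27 higher in hippocampus (SE 0.25, adjusted p = 1.10e-04, edgeR). From cerebellum it differed by 0.55 (SE 0.26, adjusted p = 0.0675, edgeR).

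Atxn3, Atxn7 and Tbp passed in neither comparison with liver. Their liver libraries held 5 to 16 tags, which gave 5.41 and 7.76 CPM for Atxn3, 6.49 and 10.3 for Atxn7 and 11.9 and 5.82 for Tbp, knockout first. Differences from liver were -0.25 and 0.64 for Atxn3, 0.60 and 0.40 for Atxn7, and 0.65 and -0.20 for Tbp, from cerebellum and hippocampus in turn. The Tbp difference from cerebellum was 0.051 without wild-type liver and 1.24 without knockout liver (adjusted p = 0.0326, edgeR). That of Atxn7 ran from 0.14 without knockout cerebellum to 1.19 without wild-type cerebellum, and its difference from hippocampus from 0.082 without knockout liver to 0.98 without wild-type liver. The Atxn3 difference from hippocampus ran from 0.23 without wild-type hippocampus to 1.00 without knockout hippocampus.

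Of the 6 genes with liver tags, 2 passed as higher in cerebellum and 3 as higher in hippocampus, with 0 lower in either, where 68.1% and 68.6% of features passed. Ppp2r2b and Fgf14 are left out of these counts because they passed the filter through brain alone and could only be higher there. For cerebellum minus liver 35.5% of features were higher and 32.6% lower, and for hippocampus minus liver 35.3% were higher and 33.3% lower. Without knockout hippocampus Atxn1 also passed as higher in cerebellum than in liver (0.62, adjusted p = 0.0382, edgeR).

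The brain to liver values depend on the scaling. Hepatocyte markers alone summed in liver to 194831 (knockout) and 167852 TMM-scaled CPM (wild type), which are not shares of the gene tags. The TMM factors were 0.521 and 0.567 in liver against 1.29 to 1.41 in brain. With library totals in place of TMM the median difference of all features moved from 0.15 to 1.46 for cerebellum minus liver and from 0.13 to 1.32 for hippocampus minus liver, and all 6 genes with liver tags passed as higher in both brain tissues. Relative to those medians the Atxn3 difference from cerebellum and the Tbp difference from hippocampus were both below 0 under both scalings. Their own values turned from -0.25 to 1.05 for Atxn3 and from -0.20 to 0.99 for Tbp.

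For each gene the 2 most similar patterns were sought among 8768 named genes of at least 10 CPM, by the root mean square difference of centred log2(CPM + 1) over the 6 libraries. Cacna1a was closest to Lrrtm3 (0.13), a synaptic adhesion gene, and to Darc (0.16). Ppp2r2b was closest to Cspg5 (0.052) and to the synapsin gene Syn2 (0.095), both highest in hippocampus and, in liver, at 2.16 and 1.94 CPM for Cspg5 and 10.8 and 12.9 CPM for Syn2. Atxn10 was closest to Cdk5 (0.058), a neuronal kinase gene, and Trim44 (0.099), and Fgf14 to Fam70a (0.17) and Ppp1r16b (0.18). Atxn1 was closest to Pip4k2b (0.077) and Rmnd5b (0.089), Atxn7 to Trp53bp2 (0.092) and Zfp358 (0.11), Atxn3 to Cyfip1 (0.12) and Spry1 (0.13), and Tbp to Tmem109 (0.13) and Pdrg1 (0.14). These likenesses are descriptions over 6 libraries.

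Of 28 other SCA genes, 23 were tested, and 9 passed as higher in cerebellum than in hippocampus and 4 as lower, with a median log2 difference of 0.31, where 13.5% of features were higher and 15.8% lower. These counts include genes that passed the filter through 1 tissue alone and are a description. Itpr1 and Fat2 are also on the Purkinje and granule cell marker lists. Fat2, a protocadherin of granule cells, was counted 46 and 22 times in cerebellum but 1 and 0 times in hippocampus, knockout first, and Plekhg4 had 27 and 20 against 1 and 1, too few for a fold. The inositol trisphosphate receptor gene Itpr1 (2.69), the T-type channel gene Cacna1g (2.52) and the kinase gene Ttbk2 (0.58) were among the genes that were higher. Pld3 was lowest (-2.24, adjusted p = 9.73e-10), with Zfhx3 (-1.38) and Dab1 (-0.71) among the others that were lower. The most abundant, the elongation factor gene Eef2, did not pass (0.24, adjusted p = 0.572; edgeR throughout). Among 8 other repeat-disease genes 7 were tested, and the junctophilin gene Jph3 was lower in cerebellum (-0.77, adjusted p = 7.82e-04, edgeR), while the other 6 did not pass.

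Genes of calcium channels showed both directions, 4 of 13 higher and 7 lower in cerebellum than in hippocampus, with a median of -1.36 (features 13.5% and 15.8%). Cacna1e, Cacna1h and Cacnb1 passed the filter through hippocampus alone and could only be lower, so the counts and the median are a description. Beside Cacna1a, the auxiliary subunit genes Cacna2d2 (2.82) and Cacnb4 (1.57) and the T-type genes Cacna1g (2.52) and Cacna1i (0.67) were higher. Cacna1h, with 2 and 3 cerebellar tags against 135 and 138 in hippocampus, Cacnb1 (-2.62), Cacnb3 (-2.46), Cacna2d1 (-2.46), Cacna1e (-1.77), Cacna2d3 (-1.42) and Cacnb2 (-1.36) were lower. The most abundant of them, Cacnb3, had 12 and 14 liver tags and was 4.85 higher in hippocampus and 2.39 higher in cerebellum than in liver.

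For the channel partners of Fgf14, 9 of 11 listed genes were tested, and 2 were higher and 4 lower (features 13.5% and 15.8%). Scn3b passed the filter through hippocampus alone and could only be lower, so these counts are a description. The sodium channel genes Scn1a (0.99) and Scn2b (0.58) were higher in cerebellum, and Scn3b (-6.62), Scn3a (-4.49), Scn8a (-0.45) and the homologous factor gene Fgf13 (-3.66) were lower.

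Among 17 tested PP2A subunit genes other than Ppp2r2b, 2 were higher in cerebellum (Ppp2r1b at 0.92 and Strn3 at 0.58) and 4 lower (Strn4 at -1.26, Ppp2r5c at -1.02, Ppp2r2a at -0.65 and Ppp2r2c at -0.58), against 13.5% and 15.8% of features. Ppp2r2c, the B subunit gene with the most tags of the list, was 5.24 higher in cerebellum and 5.82 higher in hippocampus than in liver. The catalytic subunit genes Ppp2ca and Ppp2cb were higher in brain by 0.79 to 1.21.

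In SAGA, 5 of 17 genes were lower and 1 higher in cerebellum than in hippocampus, against 15.8% and 13.5% of features. The lower ones were the deubiquitinase module genes Usp22 (-0.69), Atxn7l3 (-0.66) and Eny2 (-0.78), with Kat2a (-0.69) and Tada2b (-0.68), and the acetyltransferase gene Kat2b was higher (2.19). The most abundant SAGA gene, Taf10, did not pass (-0.20). Among 15 TFIID genes that work with Tbp only Taf7 differed (1.51, adjusted p = 0.00166, edgeR). Of 8 tested ataxin-1 partner genes, the nuclear receptor gene Rora was higher in cerebellum (24 and 24 tags against 1 and 3 in hippocampus) and the kinase gene Nlk lower (-0.86). Rora passed the filter through cerebellum alone and could only be higher there than in hippocampus, so its call is a description. Of 9 ataxin-3 partner genes, 1 was higher and 1 lower in cerebellum, the lower one being the ubiquitin receptor gene Rad23b (-0.52), and Vcp, the most abundant, did not pass (-0.17).

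**Figure D3:**
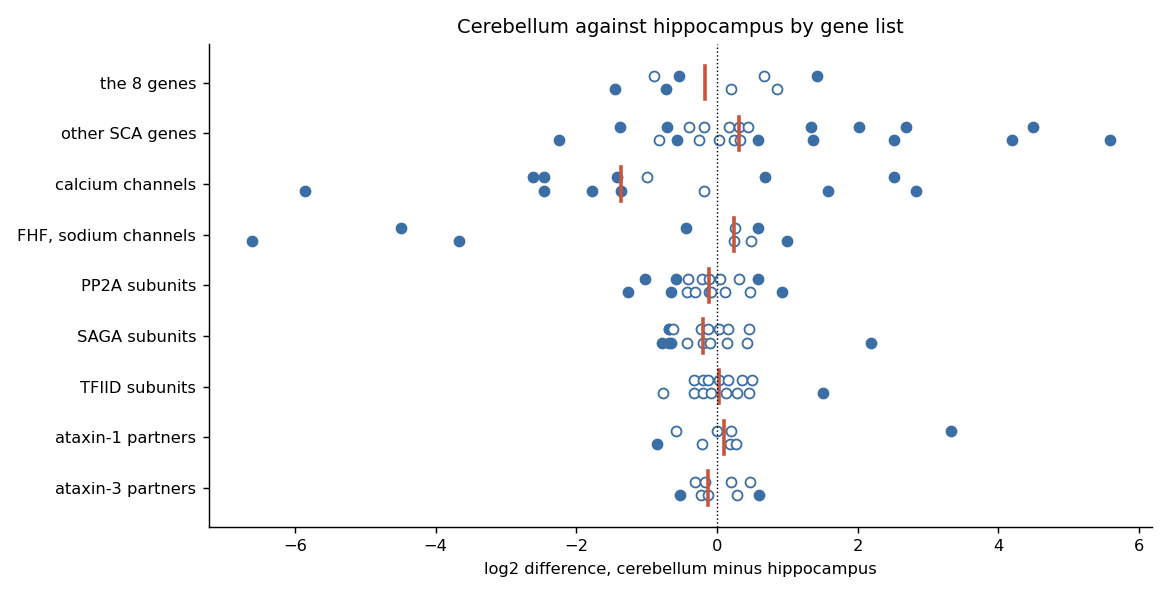
Fitted log2 difference, cerebellum minus hippocampus (x axis), of each tested gene in the 8 disease genes and in 8 lists of related genes (rows); filled points have an adjusted p under 0.05 (edgeR) and vertical bars are list medians. Other SCA genes and channel genes spread widely, whereas TFIID genes range from -0.76 to 1.51; points of genes with 3 tags or fewer in a library (such as Fat2, Plekhg4, Rora and Cacna1h) are fitted values and give no fold.

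Loss of Atxn2 left none of the 8 genes past the test across tissues, where 0.0967% of 11375 features passed, 0.00879% as higher and 0.0879% as lower (edgeR with tissue as block). At an unadjusted p under 0.05 the count was 0 with edgeR and 0 with DESeq2, and the smallest p was 0.0692, for Atxn1. The fitted log2 changes, knockout minus wild type, were -0.60 for Fgf14 (SE 0.31), -0.44 for Atxn3 (SE 0.32), -0.34 for Atxn1 (SE 0.18) and -0.20 for Cacna1a (SE 0.16). They were 0.21 for Atxn10 (SE 0.15), 0.092 for Atxn7 (SE 0.28), 0.043 for Tbp (SE 0.30) and 0.025 for Ppp2r2b (SE 0.20). Leaving out cerebellum moved Fgf14 to -0.30, Atxn3 to -0.79 and Atxn1 to -0.59, leaving out hippocampus moved Fgf14 to -0.89 and Atxn3 to -0.099, and none was called. With standard errors of 0.15 to 0.32, a miss does not show equal levels. The labels give the 3 tissues of a genotype the same animal numbers, so the p-values measure agreement between tissues of 1 pool.

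A single tissue offers 1 library for each genotype, so its ratios have no replicate check and no test. Ratios are given with exact 95% counting intervals, which cover counting error only, and in bulk tissue fewer cells of a type and less RNA per cell cannot be told apart. In cerebellum the interval excluded equality for 4 of 8 genes, against 11.2% of features with a mean of at least 1 CPM and 15.2% of those with at least 10 CPM (5.45% higher and 5.72% lower at 1 CPM). In hippocampus it did so for 2 of 8, both lower, against 16.7% of features (8.34% higher, 8.37% lower, and 23.0% at 10 CPM). In liver it did so for 1 of the 6 with tags, a higher one, against 14.9% (7.85% higher, 7.02% lower, and 22.3% at 10 CPM). None of the 8 genes reached a 2-fold difference together with a mean of 10 CPM and an interval away from equality, a rule met by 0.445%, 1.47% and 4.92% of features in cerebellum, hippocampus and liver. By direction, the cerebellar share was 0.129% higher and 0.316% lower, the hippocampal share 0.432% higher and 1.04% lower, and the liver share 1.53% higher and 3.39% lower.

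The cerebellar Fgf14 count was 32 for knockout and 60 for wild type, or 9.91 and 18.0 CPM, a log2 ratio of -0.86 (interval -1.53 to -0.22). In hippocampus it had 24 and 26 tags, a ratio of -0.23 (-1.09 to 0.63), and the difference between these ratios was not tested. Cacna1a had a cerebellar ratio of -0.16 (-0.30 to -0.010), a hippocampal ratio of -0.15 (-0.40 to 0.11) and a liver ratio of -0.99 (-2.60 to 0.37). The Purkinje cell markers, which like Cacna1a are abundant in those neurons, summed to 8841 CPM in knockout and 9850 in wild-type cerebellum, where 6 of 9 had an interval below 0 and 0 above it and all 10 listed had tags. In hippocampus 5 of 9 Purkinje markers had an interval below 0 and 1 above it. Granule cell markers summed in cerebellum to 3541 and 3403 CPM, with 5 of 10 higher and 2 lower. Of all features in cerebellum, 5.45% were higher and 5.72% lower at 1 CPM, and 15.2% differed at 10 CPM. The part of these cell types in the ratios of Fgf14 and Cacna1a was not tested.

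Atxn7 was the highest of the 8 in the knockout cerebellum relative to wild type. Its 52 and 34 tags gave a ratio of 0.66 (0.0091 to 1.33). With DESeq2 size factors the interval included 0 (-0.0026 to 1.32), and the ratios in hippocampus (-0.29) and liver (-0.67) lay on the other side of 0 with intervals that include it. Atxn10 was higher in the knockout by 0.18 in cerebellum (0.037 to 0.33) and by 0.50 in liver (0.18 to 0.82), where 154 and 182 tags came from libraries of unequal depth. The hippocampal ratio was 0.022 (-0.11 to 0.15). The liver ratio of Atxn10 was 0.38 (0.06 to 0.70) with library totals and 0.61 (0.29 to 0.92) with DESeq2 size factors.

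In hippocampus Atxn1 was lower in the knockout, with 129 and 165 tags and a ratio of -0.47 (-0.81 to -0.13), against -0.053 (-0.47 to 0.36) in cerebellum and -0.71 (-1.67 to 0.18) in liver. Atxn3 had 22 and 36 hippocampal tags, a ratio of -0.82 (-1.66 to -0.017), but 18 and 17 in cerebellum (0.13, -0.91 to 1.18). Hepatocyte markers were also lower in the knockout hippocampus, in 8 of 9 with a ratio, and 1 of 10 was at 0 in each library. Astrocyte markers summed to 1768 CPM in knockout and 2045 in wild-type hippocampus, with 4 of 7 lower and 0 higher. Of all features in hippocampus, 8.37% were lower and 8.34% higher at 1 CPM, and 23.0% differed at 10 CPM. The part of hepatocyte and astrocyte RNA in the ratios of Atxn1 and Atxn3 was not tested. The wild-type liver level of Atxn1, 26.5 CPM, and of Atxn3, 7.76 CPM, lay below the hippocampal levels of 58.9 and 12.9 CPM.

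Ppp2r2b and Tbp had intervals on both sides of 0 in each tissue where they had tags. The ratio of Ppp2r2b was 0.071 (-0.46 to 0.60) in cerebellum and -0.0044 (-0.34 to 0.33) in hippocampus. Tbp, with 40 and 42 tags, was at -0.023 (-0.69 to 0.64) in cerebellum and, with 18 and 22, at -0.40 (-1.38 to 0.57) in hippocampus. In liver the ratio of Tbp was 1.03, but it came from 11 and 9 tags and its interval ran from -0.38 to 2.48.

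**Figure D4:**
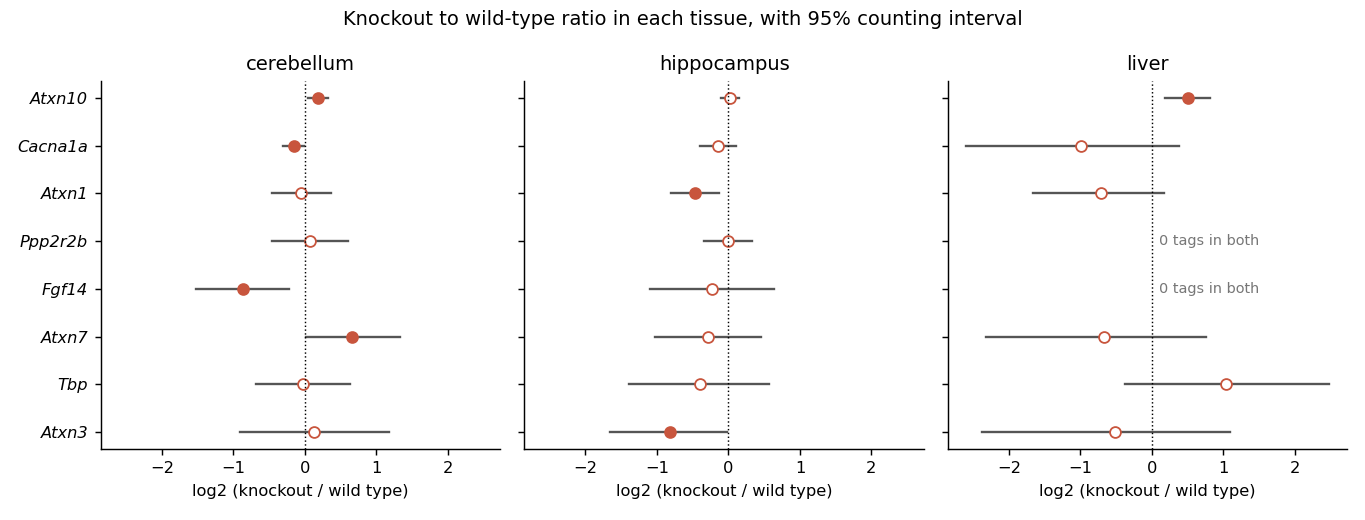
Log2 ratio of knockout to wild type (x axis) for each gene in cerebellum, hippocampus and liver; lines are exact 95% counting intervals for 1 library per genotype, and filled points mark intervals that exclude 0. The filled points are Atxn10, Cacna1a, Fgf14 and Atxn7 in cerebellum, Atxn1 and Atxn3 in hippocampus and Atxn10 in liver.

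The related lists held no gene past the genotype test either, with 0 of 19 other SCA genes, 0 of 10 calcium channel genes, 0 of 8 sodium channel and homologous factor genes, 0 of 17 PP2A, 0 of 17 SAGA and 0 of 15 TFIID genes called across tissues (edgeR). Their medians were -0.075, -0.0080, -0.098, 0.031, 0.013 and -0.083, against -0.0040 for all features. Among the 7 other repeat-disease genes 0 were called and 0 lay above 0, with a median of -0.15, and Atn1 was lowest at -0.27 (SE 0.16). None of 7 ataxin-1 and 9 ataxin-3 partner genes was called. In cerebellum alone 2 of 23 other SCA genes had an interval above 0 and 3 below, against 5.45% and 5.72% of features. Those below included Itpr1 at -0.27 (-0.34 to -0.20) and Ttbk2 at -0.24 (-0.45 to -0.038). Those above were Fat2 at 1.11 (0.35 to 1.91), from 46 and 22 tags, and Eef2 at 0.17 (0.11 to 0.23). In hippocampus 3 of 20 had an interval above 0 and 3 below, against 8.34% and 8.37% of features. In liver 1 of 17 lay above and 2 below, against 7.85% and 7.02%.

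Some genes also differed in which record or strand held the tags. Ppp2r2b tags fall either in a row of transcript variant 1 alone or in a row shared by variants 1 and 2. Variant 1 alone held 14 of 62 tags in knockout cerebellum (22.6%, exact Clopper-Pearson interval 12.9% to 35.0%) and 28 of 61 in wild type (45.9%, 33.1% to 59.2%), and the intervals overlap slightly. In hippocampus the share was 35.7% in both genotypes. Antisense tags made up 23.0% (16.0% to 31.4%) and 18.1% (11.8% to 25.9%) of all Atxn1 tags in knockout and wild-type cerebellum. In hippocampus they made up 6.52% (3.03% to 12.0%) and 6.78% (3.55% to 11.5%), so both cerebellar shares lay above both hippocampal ones, with a slight overlap between the intervals of wild-type cerebellum and knockout hippocampus. Of the other 7 genes only Fgf14 had more than 5 antisense tags, 15 in all beside 142 sense tags.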

How the data were processed

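The deposited table holds raw counts of tags per RefSeq record, sense and antisense, with no normalization, per the file headers. Base calling used CASAVA 1.8.2, and the build is given as mm9, per the submitters' processing notes; the table itself names GRCm38. No aligner is named in the sources used. Rows outside the RefSeq RNA set carry no gene symbol and did not enter the library sizes (genomic contigs 22.5% to 29.6% and unmatched tags 7.21% to 8.83% of tags). Sense counts were summed per symbol (4472 of 22926 features are joint rows of several genes). The 8 genes and all lists were chosen with earlier results of these data known.

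Genotype (11375 genes) and tissue (12906 genes) were tested in edgeR 4.0.16 with the model tissue + genotype, TMM scaling and filterByExpr by genotype or tissue; all 8 genes passed both filters, Ppp2r2b and Fgf14 through brain alone. The fits were tested on simulated data. Within a tissue, exact (Clopper-Pearson) 95% intervals of the tag ratio came from scipy 1.17.1. Alternatives were library totals, DESeq2 size factors, DESeq2 1.42.0, other handling of joint rows, no filter, no block, other size limits, and leaving out each library or tissue. The text names all 8 genes, and of each list the most abundant, highest and lowest gene and those that passed, apart from some that are not reported here; Supt3, Supt20 and Fgf11 had no feature of that name and were not analysed here. The single-tissue tables were not used.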

Additional observations from a re-analysis of the deposited data

How the results depend on the processing

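Across tissues 11 genes passed for genotype; 5 did with DESeq2 size factors, 110 without a filter (25 higher, 85 lower), 2 with DESeq2 and 0 without the tissue block, and 22 to 106 when a tissue was left out. Cerebellum minus hippocampus gave 3785, against 1934 with DESeq2 and 1852 to 4890 when a library was left out. Past the 2-fold rule were 38 genes in cerebellum (79 with library totals), 126 in hippocampus and 406 in liver; a limit of log2 0.5 gave 420, 858 and 1059, and a mean of 5 CPM 135 and 288 in cerebellum and hippocampus. With library totals the calls were 2149 higher and 1663 lower for cerebellum minus hippocampus (TMM 1745 and 2040), 8586 and 2015 for cerebellum minus liver (TMM 4587 and 4204) and 8035 and 2181 for hippocampus minus liver (TMM 4560 and 4293).

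Signs turned for genotype in Atxn7 (-0.44 without cerebellum, up to 0.30 without hippocampus), Tbp (-0.16 without liver, up to 0.22 without hippocampus) and Ppp2r2b (-0.0053 with DESeq2 size factors, -0.082 without cerebellum and 0.038 without hippocampus, with the highest value, 0.22, from the single highest row per symbol). They turned for Atxn7 in cerebellum minus hippocampus (-0.35 without knockout cerebellum, -0.10 without knockout hippocampus, up to 0.70 without wild-type cerebellum), for Atxn3 in cerebellum minus liver (1.05 with library totals, 0.27 without wild-type cerebellum, down to -0.60 without knockout cerebellum) and for Tbp in hippocampus minus liver (0.99 with library totals, 0.18 without knockout hippocampus, 0.38 without knockout liver, down to -0.80 without wild-type liver). The cause was not tested. All 110 alternative within-tissue ratios stayed inside their counting intervals. These alternatives rescale or regroup the same tags, so they could hardly leave the intervals, and this is no replicate check. The Atxn7 interval in cerebellum included 0 with DESeq2 size factors. The tissues of a genotype carry the same animal numbers, and genotype was the block in the tissue fits; without that replicate block 3637 features passed for cerebellum minus hippocampus, and the calls of the 8 genes were the same. Low counts limit Atxn3, Atxn7, Tbp and Fgf14 in brain and every liver value but that of Atxn10.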
